A study of Homo sapiens with 48 samples.

Results

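The late response to IGF-I was compared between T47D-YA cells that express the adaptor protein IRS-1 and T47D-YA cells that express IRS-2. The comparison rests on 24 of the 48 arrays of the series, those taken at 24 h, and it asks which transcripts answered IGF-I differently according to the adaptor present. T47D is a luminal breast cancer line, and its YA derivative has the receptor for IGF-I but no IRS adaptor of its own. Human IRS-1 or IRS-2 was put into it, and stable clones were kept under hygromycin. Clones #10 and #20 carry IRS-1 and clones #1 and #6 carry IRS-2, so each isoform is represented by 2 clonal lines, and what is particular to a clone cannot be told apart from the isoform when both clones of an isoform share it. After 24 h without serum, cells were given IGF-I or only SFM+FN, the serum-free arm called SFM here. Every clone has 3 arrays per treatment at 24 h, lettered A to C. The labels do not say whether the letters stand for separate cultures, so the p-values measure the spread between these arrays, which may be technical. IRS-null arrays were not analysed here. The response of a clone is its mean log2 value with IGF-I minus its mean in SFM. The isoform difference is the mean response of the IRS-1 clones minus the mean response of the IRS-2 clones, and a positive value means a higher response with IRS-1. Where responses of the 4 clones are listed, the order is #10, #20, #1 and #6. In bulk RNA, a change in the share of cells that express a gene and a change per cell cannot be told apart. The IRS1 and IRS2 probe sets did not follow the labels. In SFM the level in the clones labelled IRS-1 minus that in the clones labelled IRS-2 was -2.38, -0.25 and -0.14 for the IRS1 probe sets 204686_at, 242979_at and 238933_at, and 0.46 and 0.06 for the IRS2 probe sets 209185_s_at and 209184_s_at. In limma, all but the last had an adjusted p below 0.05. Whether these probe sets read the introduced sequences is not given in the sources used here, and clones are named as labelled.

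IGF-I activates its receptor, a tyrosine kinase, and IRS-1 and IRS-2 are the docking proteins that pass the signal to PI3K and, to differing degrees, to the MAPK cascade. Sustained PI3K and mTORC1 signalling raises the demand for amino acids, and one regulator of their supply is ATF4. This transcription factor is translated more when amino acids are short or proteins misfold, and also downstream of mTORC1. Its targets make, import and charge amino acids, and they include secreted factors such as INHBE, GDF15 and STC2 and the regulators TRIB3, CHAC1 and DDIT3.

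At 24 h, 32 of 54613 probe sets had a higher response to IGF-I with IRS-1 than with IRS-2, which is 0.0586% of those tested. Responses are signed, so a fall with IRS-2 also gives a higher value with IRS-1. For CCL20 the mean responses were 0.15 with IRS-1 and -0.75 with IRS-2. A call here and below needed a change of 1.5-fold or more together with an adjusted p (Benjamini-Hochberg) below 0.05. No probe set was called in the other direction (0 of 54613, 0%). In limma without the fold threshold, 38 probe sets were lower with IRS-1, and at an unadjusted p under 0.05 with the fold, 7 were. The count in that direction was 15 without the B arrays and 7 with clones in place of arrays as replicates. The 32 probe sets represent 24 named genes and 3 probe sets without a gene symbol. By the brightest probe set of each gene, 21 of 19775 genes were called (0.106%). The differences ran from 0.59 to 1.95 on the log2 scale. The 4 genes with the largest differences were INHBE and GDF15, which encode secreted stress factors, the cystine importer SLC7A11 and the asparagine-making enzyme ASNS. Others of like function further down the order were STC2, PSAT1 and PSPH. A second, smaller set was of chemokine and interferon-linked genes (CXCL10, HERC5 and CCL20).

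**Figure D1:**
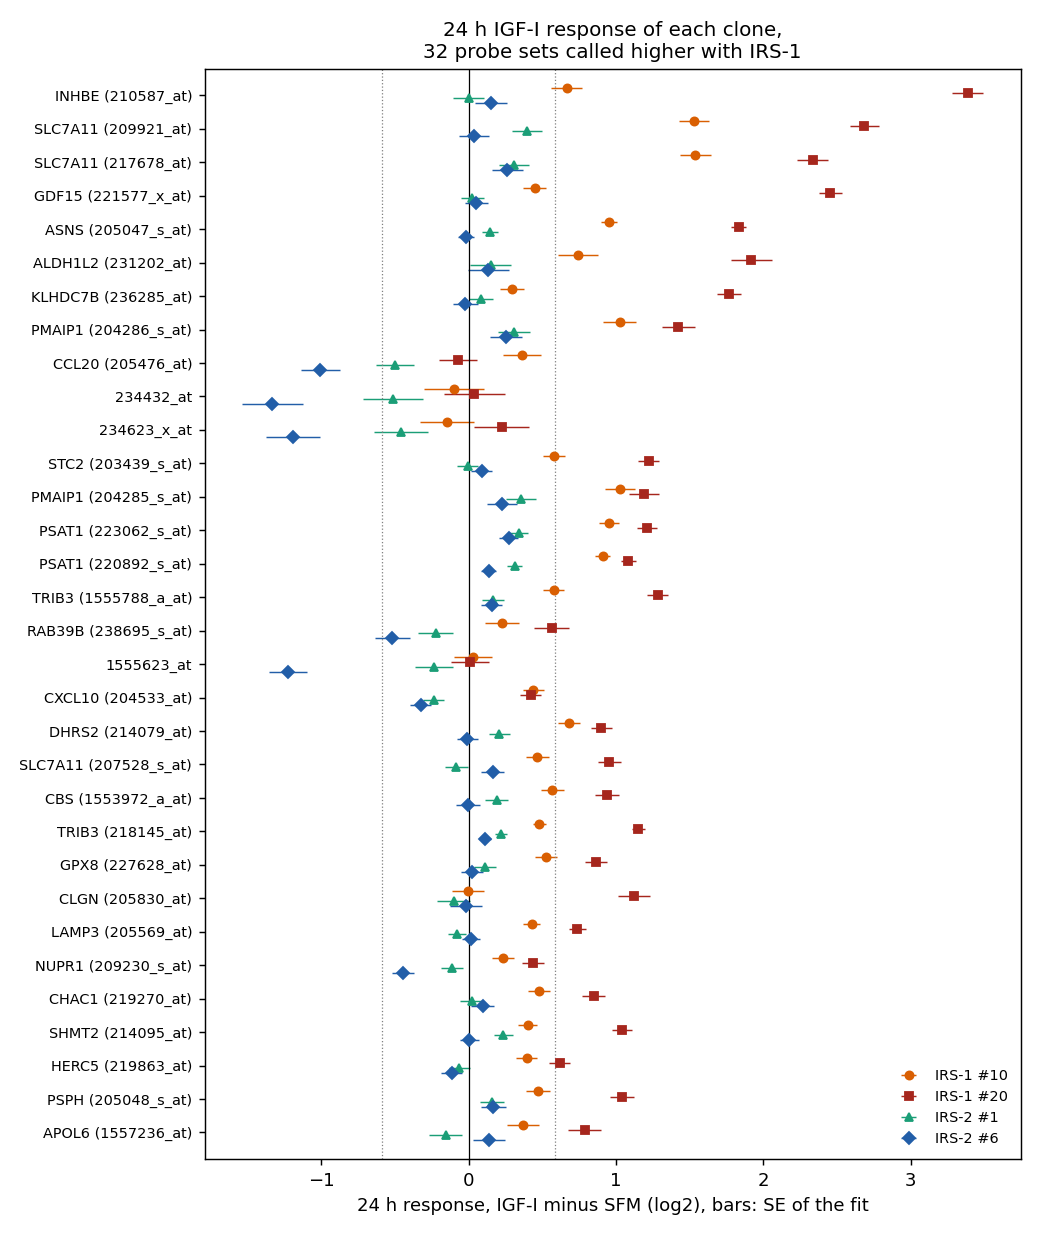
Response to IGF-I at 24 h (IGF-I minus SFM, log2) of each of the 4 clones for the 32 probe sets called higher with IRS-1; points are means of 3 arrays against 3, bars are the standard error of the fit, and dotted lines mark 1.5-fold. The IRS-1 #20 responses reach 3.39 for INHBE, while no IRS-2 response exceeds 0.40.

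The responses of the 32 probe sets differed in size between the clones. With IRS-1 their median response was 0.47 (#10) and 1.04 (#20), and with IRS-2 it was 0.06 (#1) and 0.03 (#6). In 10 of the 32 the rise was called in both IRS-1 clones and in neither IRS-2 clone. In 15 it was called in IRS-1 #20 alone, and in 0 in IRS-1 #10 alone. Over all probe sets, 0.125% rose in #10, 0.187% in #20, 0.0256% in #1 and 0.00732% in #6. None of the 32 had a called rise in an IRS-2 clone. In 4 of them IRS-2 #6 instead had a called fall, where 0.0714% of all probe sets fell in that clone, and in 3 no clone was called by itself. Both IRS-1 responses lay above both IRS-2 responses in all 32, as they did in 16.2% of all probe sets. This order is close to a condition of being called and is not separate evidence.

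The larger responses of IRS-1 #20 carried many of the calls. Its response was the higher of the IRS-1 pair in 29 of the 32, and in 12 the IRS-1 clones themselves differed by the same rule. Over all probe sets, 63 (0.115%) had a higher response in IRS-1 #20 than in IRS-1 #10 and 10 (0.0183%) a lower one. Between the IRS-2 clones 0 probe sets were called in limma in either direction, with 4 higher and 35 lower in IRS-2 #6 at an unadjusted p under 0.05 and 1.5-fold. Each IRS-1 clone was also set against each IRS-2 clone. All 4 pairs were called in 8 of the 32 probe sets, 3 pairs in 4, 2 pairs in 19 and 1 pair in 1. The 8 belong to SLC7A11, ASNS, PMAIP1, PSAT1 and CXCL10. Without clone #10 the count was 82 and without clone #20 it was 13. Without #20, 12 of the 32 remained called, which adds INHBE, CCL20, RAB39B and the unnamed 1555623_at to those 5 genes. With 4 clones as the units, an exact permutation test of 2 against 2 cannot give a two-sided p below 0.333. Taking each probe set's own variance among the 4 clones, limma called 0 after adjustment, and 8 probe sets were higher and 0 lower at an unadjusted p under 0.05 and 1.5-fold.

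INHBE, which encodes the beta E subunit of activin and is a known ATF4 target, had the largest isoform difference. In IRS-1 #20 its log2 values were 5.29, 5.37 and 5.40 in SFM and 8.85, 8.53 and 8.84 with IGF-I. In IRS-1 #10 they were 4.98, 5.25 and 5.18 in SFM and 5.89, 5.61 and 5.91 with IGF-I. Both IRS-1 clones rose with no overlap between treatments, IRS-1 #20 by far more. In IRS-2 #1 the values were 5.34, 5.44 and 5.61 in SFM and 5.45, 5.52 and 5.42 with IGF-I, and in IRS-2 #6 5.42, 5.46 and 5.76 against 5.74, 5.77 and 5.59. The treatments overlapped in both IRS-2 clones. The responses were 0.67, 3.39, 0.00 and 0.15, an isoform difference of 1.95 ± 0.11 (SE, 3.87-fold, adjusted p = 1.38e-18 in limma). The pair of IRS-1 #10 and IRS-2 #6 was the only one of the 4 pairs not called.

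GDF15, a stress-induced cytokine of the TGF-beta superfamily, showed the same order of clones, but its rise was called in IRS-1 #20 alone. Its arrays there read 7.45, 7.67 and 7.52 in SFM and 10.05, 9.96 and 10.00 with IGF-I. IRS-1 #10 read 7.95, 8.17 and 7.99 against 8.45, 8.50 and 8.51, a response of 0.45 with no overlap between treatments. IRS-2 #1 (7.33, 7.26 and 7.39 against 7.42, 7.20 and 7.44) and IRS-2 #6 (7.69, 7.76 and 7.67 against 7.69, 7.76 and 7.83) overlapped between treatments. The isoform difference was 1.41 ± 0.08 (adjusted p = 1.38e-18), and it stood at 0.37 and 0.14, neither called, in the dimmer GDF15 probe sets 221576_at and 229868_s_at. STC2, a secreted glycoprotein of calcium and phosphate handling, had responses of 0.58 and 1.22 with IRS-1 and 0.00 and 0.09 with IRS-2, a difference of 0.86 ± 0.07 (adjusted p = 4.29e-12). The dimmer STC2 probe set 203438_at was not called. Of the 8 stress-induced secreted factors listed, INHBE, GDF15 and STC2 were called higher and 0 lower, and the list's median difference was 0.24, against 0.01 over all genes. The other members, VEGFA (0.25), TSLP (0.22), ADM2 (0.17), MANF (0.11) and FGF21 (0.10), were not called. In 7 of the 8 both IRS-1 responses lay above both IRS-2 responses, against 17.8% of all genes.

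**Figure D2:**
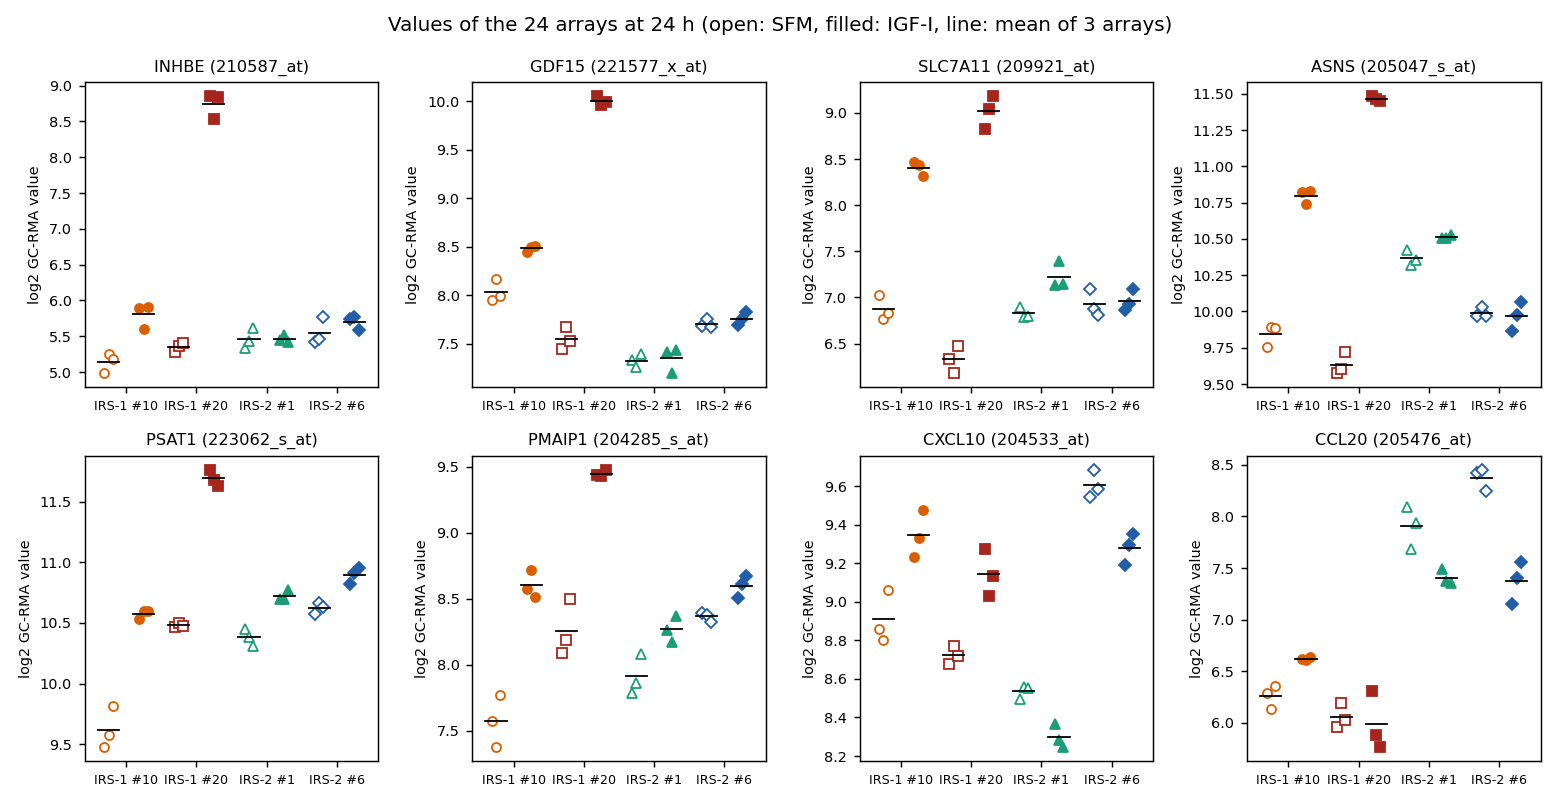
Deposited log2 values of the 24 arrays at 24 h for INHBE, GDF15, SLC7A11, ASNS, PSAT1, PMAIP1, CXCL10 and CCL20, by clone; open symbols are SFM, filled symbols IGF-I and lines the mean of 3 arrays. INHBE reaches 8.85 in IRS-1 #20 with IGF-I, and CCL20 stands highest in the IRS-2 clones in SFM.

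SLC7A11, the cystine and glutamate exchanger that feeds glutathione synthesis, was called by 3 probe sets. For 209921_at the IRS-1 #10 arrays read 7.03, 6.77 and 6.83 in SFM and 8.46, 8.44 and 8.32 with IGF-I, and the IRS-1 #20 arrays 6.34, 6.18 and 6.47 against 8.83, 9.04 and 9.18. The SFM values of IRS-1 #20 were the lowest of the 4 clones, and its values with IGF-I the highest. IRS-2 #1 read 6.90, 6.79 and 6.80 against 7.14, 7.39 and 7.15, and IRS-2 #6 7.09, 6.87 and 6.81 against 6.86, 6.93 and 7.09. The isoform difference was 1.89 ± 0.10 (3.72-fold, adjusted p = 9.11e-19), and all 4 pairs of clones were called. It was 1.65 for 217678_at and only 0.67 for 207528_s_at, the brightest probe set of the gene, so the size of the difference depended on the probe set. Among the 19 amino acid transporters measured, SLC7A11 was the only one called. By the adjusted p alone, 5 of the 19 were higher, where 0.708% of all genes were: SLC7A11, the cationic transporter SLC7A1 (0.54), the leucine importer SLC7A5 (0.51), the serine and alanine transporter SLC1A4 (0.47) and SLC3A2 (0.37), the heavy chain shared by SLC7A5 and SLC7A11. The other members ranged from -0.07 to 0.31, and the median of the list was 0.09.

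ASNS, which makes asparagine from aspartate and glutamine, had the smallest adjusted p of all probe sets called. Its arrays read 9.76, 9.89 and 9.88 in SFM and 10.83, 10.74 and 10.83 with IGF-I in IRS-1 #10, and 9.57, 9.60 and 9.72 against 11.48, 11.46 and 11.45 in IRS-1 #20. IRS-2 #1 read 10.42, 10.32 and 10.36 against 10.51, 10.51 and 10.53, and IRS-2 #6 9.97, 10.03 and 9.97 against 9.87, 9.98 and 10.07. In SFM both IRS-1 clones lay below both IRS-2 clones, and with IGF-I both lay above them. The responses of 0.96 and 1.83 with IRS-1 and 0.15 and -0.02 with IRS-2 gave a difference of 1.33 ± 0.05 (2.51-fold, adjusted p = 1.10e-23). The far dimmer ASNS probe set 241082_at had a difference of 0.30 and was not called.

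The enzymes of serine synthesis moved in the same direction. PSAT1, the aminotransferase of that pathway, read 9.48, 9.57 and 9.81 in SFM and 10.53, 10.60 and 10.60 with IGF-I in IRS-1 #10 (probe set 223062_s_at), and 10.46, 10.50 and 10.47 against 11.76, 11.68 and 11.63 in IRS-1 #20. IRS-2 #1 read 10.45, 10.38 and 10.31 against 10.69, 10.70 and 10.77, and IRS-2 #6 10.58, 10.66 and 10.63 against 10.82, 10.91 and 10.95. The treatments did not overlap in any of the 4 clones, and the rise passed 1.5-fold in the IRS-1 clones only. The IRS-1 responses were close to each other (0.95 and 1.21), as were the IRS-2 responses (0.34 and 0.27), and the difference was 0.78 ± 0.07 (adjusted p = 7.08e-12). PSPH, the phosphatase of the last step, had a difference of 0.59 and CBS, which condenses serine with homocysteine, one of 0.66. In both, IRS-1 #20 alone had a called rise. Dimmer probe sets of the 2 genes were not called, among them CBS 212816_s_at (0.52) and 240517_at (0.14) and PSPH 205194_at. PHGDH, the first enzyme of the pathway, missed the fold at 0.47 (adjusted p = 7.93e-09), as did the mitochondrial one-carbon enzymes MTHFD2 (0.46) and SHMT2 (0.50). SHMT2 was called by its dimmer probe set 214095_at (0.60), and ALDH1L2, a mitochondrial folate enzyme, by 231202_at (1.19, adjusted p = 5.61e-08) but not by its brightest probe set (0.38, adjusted p = 0.134). SHMT2 and ALDH1L2 are thus named from probe sets picked for their values. Of the 16 listed enzymes measured, 4 were called higher, 0 lower, 8 were higher by the adjusted p alone, and all 16 differences were above 0, with a median of 0.31. Over all genes, 0.106% were called higher and 0.708% were higher by the adjusted p, with a median of 0.01.

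Of the 24 called genes, 15 have promoter windows in the reference table (RefSeq, GRCh38.p14, 300 bases, from 250 before to 50 after a start site). The core of the amino acid response element through which ATF4 acts, TGATGNAA, was searched on both strands. It occurs in 4 of the 15 (26.7%) and in 1217 of all 27305 genes of the table (4.46%), a gene counting if any of its windows holds it. A match describes the letters in the window, not a site in use. The 60 bases around each match are shown on the gene's strand, with the match in capitals. In ASNS it reads as given and begins at -68 from the start site; in the other 3 it is the reverse complement, beginning at -209 in CHAC1, -189 in GPX8 and -151 in KLHDC7B.
ASNS, chr7:97872443-97872502, minus strand: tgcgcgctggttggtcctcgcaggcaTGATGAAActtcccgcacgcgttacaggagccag
CHAC1, chr15:40953236-40953295, plus strand: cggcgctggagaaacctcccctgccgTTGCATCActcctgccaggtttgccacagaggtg
GPX8, chr5:55159956-55160015, plus strand: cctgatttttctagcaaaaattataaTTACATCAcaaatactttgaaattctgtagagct
KLHDC7B, chr22:50545722-50545781, plus strand: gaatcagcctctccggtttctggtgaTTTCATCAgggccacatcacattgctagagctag
These 4 genes differed in which clones responded. ASNS rose in both IRS-1 clones, whereas CHAC1 (IRS-1 responses of 0.48 and 0.85), GPX8 (0.53 and 0.87) and KLHDC7B (0.29 and 1.77) had a called rise in IRS-1 #20 only. CHAC1 degrades glutathione, GPX8 is a peroxidase of the endoplasmic reticulum, and KLHDC7B is a kelch domain protein. With IRS-2 the responses of all 4 genes lay between -0.02 and 0.15. Dimmer probe sets of GPX8 (228141_at, 0.44) and KLHDC7B (1552639_at, 0.56) missed the fold in the isoform difference.

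Of the 16 regulators of the ATF4 programme and stress response measured, 11 had a higher response with IRS-1 by the adjusted p, 3 of them by 1.5-fold or more. Of all genes, 0.708% passed the adjusted p in that direction and 0.106% were called. TRIB3, a pseudokinase that ATF4 and DDIT3 induce, read 11.12, 11.24 and 11.18 in SFM and 11.66, 11.61 and 11.71 with IGF-I in IRS-1 #10, and 11.70, 11.71 and 11.77 against 12.93, 12.85 and 12.86 in IRS-1 #20 (probe set 218145_at). Its IRS-2 responses were 0.22 and 0.11, and its difference was 0.65 ± 0.04 (adjusted p = 4.38e-16). NUPR1, a small stress-induced chromatin protein, had no called response in any clone. Its IRS-1 responses of 0.24 and 0.44 lay opposite to IRS-2 responses of -0.11 and -0.44, and the difference of 0.61 ± 0.08 was called (adjusted p = 2.65e-07). ATF4 itself had responses of 0.27, 0.78, 0.11 and -0.03. Its difference of 0.48 ± 0.06 passed the adjusted p (8.36e-08) and missed the fold. The same held for DDIT3, the transcription factor CHOP, at 0.57, whose responses were 0.10, 1.07, 0.01 and 0.03 with a called rise in #20, and for ATF3 at 0.35. The 3 called were TRIB3, NUPR1 and CHAC1, 0 were lower by the adjusted p, and the median difference was 0.37. In 12 of the 16 both IRS-1 responses lay above both IRS-2 responses, against 17.8% of all genes.

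Among the cytosolic aminoacyl-tRNA synthetases, which charge tRNAs with amino acids, none of the 17 measured was called. By the adjusted p alone 8 of the 17 were higher, where 0.708% of all genes were. The 8 were YARS1 (0.51), TARS1 (0.46), GARS1 (0.46), AARS1 (0.45), CARS1 (0.45), SARS1 (0.42), WARS1 (0.29) and IARS1 (0.28). VARS1 (-0.02), LARS1 (0.01) and RARS1 (0.02) stood near 0, and the median was 0.23. In all, 11 of the 76 genes measured in these 5 lists of stress regulators, secreted factors, transporters, enzymes and synthetases were called (14.5%), out of 21 called among all 19775 genes. The lists were written with earlier results of these data known, so that share is a description and not separate evidence. Of 16 genes of endoplasmic reticulum folding, a related stress pathway, 0 were called, 1 (HERPUD1, 0.24) passed the adjusted p, and the median difference was 0.06. Of the 16 differences 13 were above 0, and both IRS-1 responses lay above both IRS-2 responses in 25.0%, against 17.8% of all genes. The median responses of this list were 0.02, 0.22, 0.06 and -0.02. The 14 antioxidant genes under NRF2 had 0 calls and a median of -0.03, although SLC7A11 is also known as an NRF2 target and was counted with the transporters.

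**Figure D3:**
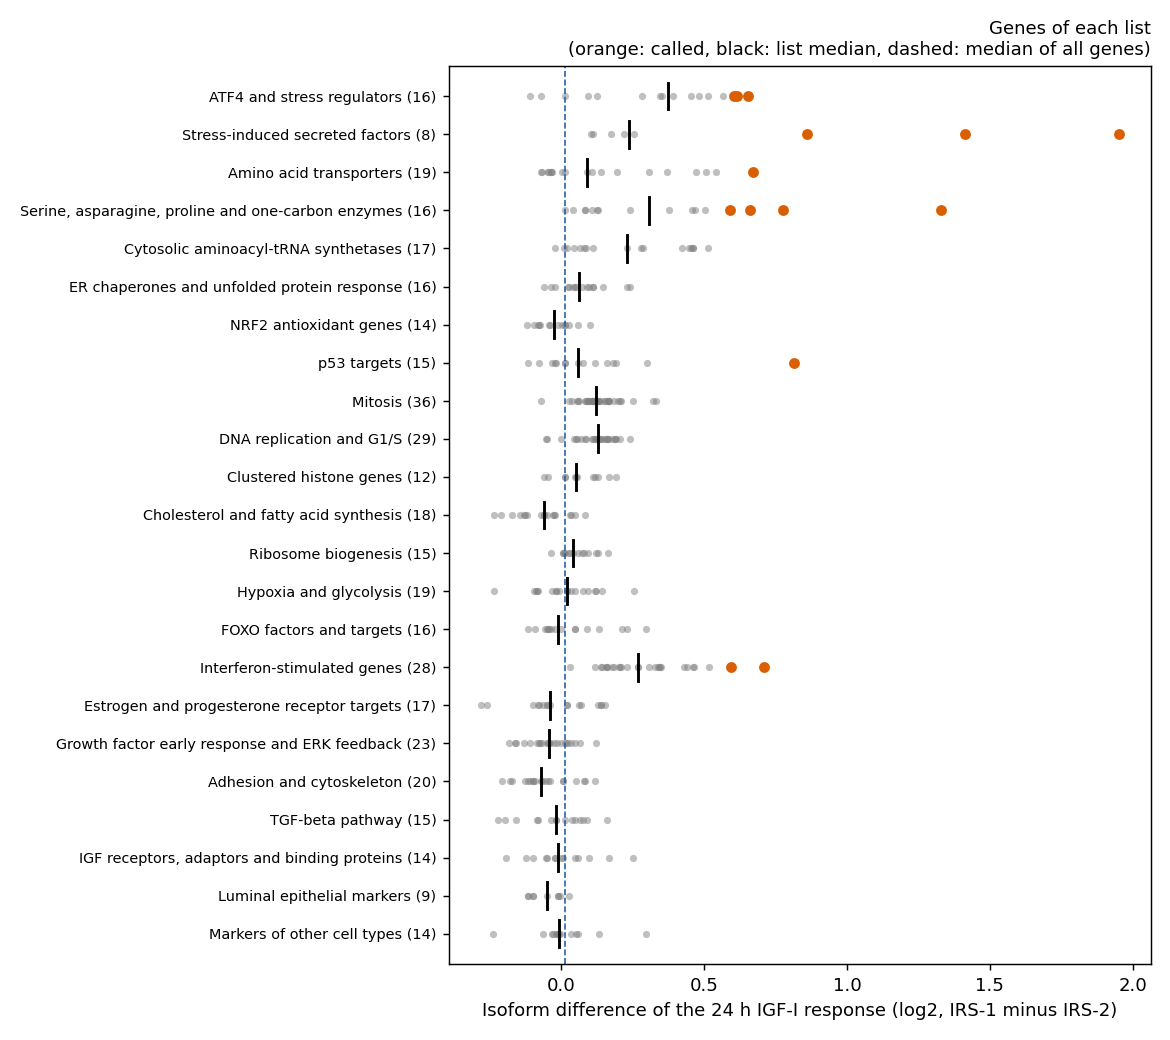
Isoform difference of the 24 h response (log2, IRS-1 minus IRS-2) for each measured gene of 23 lists, with 1 probe set per gene and the number measured in parentheses; orange points were called, black bars are list medians and the dashed line is the median of all genes (0.01). The medians reach 0.37 for the ATF4 and stress regulators and 0.27 for the interferon-stimulated genes.

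PMAIP1, the pro-apoptotic BH3-only protein NOXA, rose in both IRS-1 clones by similar amounts. Its brighter probe set, 204285_s_at, read 7.57, 7.38 and 7.77 in SFM and 8.58, 8.72 and 8.52 with IGF-I in IRS-1 #10, and 8.09, 8.19 and 8.50 against 9.44, 9.43 and 9.48 in IRS-1 #20. IRS-2 #1 read 7.79, 7.86 and 8.09 against 8.27, 8.18 and 8.37, and IRS-2 #6 8.39, 8.38 and 8.33 against 8.51, 8.61 and 8.68. The treatments did not overlap in any clone, and the responses of 1.03 and 1.19 with IRS-1 exceeded those of 0.36 and 0.23 with IRS-2 by 0.82 ± 0.10 (adjusted p = 3.81e-07). PMAIP1 was the only called gene of the 15 measured in the list of p53 targets, where 0.106% of all genes were called. GDF15 was counted with the secreted factors and not in this list. The next largest difference there was 0.30, for the death receptor TNFRSF10B, and the list's median was 0.06.

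A second group held chemokines and interferon-stimulated genes, among them CXCL10, HERC5 and CCL20. CXCL10, an interferon-induced chemokine, read 8.86, 8.80 and 9.06 in SFM and 9.23, 9.33 and 9.48 with IGF-I in IRS-1 #10, and 8.68, 8.77 and 8.72 against 9.27, 9.03 and 9.13 in IRS-1 #20. IRS-2 #1 read 8.50, 8.56 and 8.55 against 8.37, 8.28 and 8.25, and IRS-2 #6 9.54, 9.68 and 9.59 against 9.19, 9.30 and 9.35. With IGF-I every array was higher than in SFM in both IRS-1 clones, and every array lower in both IRS-2 clones. None of these responses (0.44, 0.42, -0.24 and -0.32) reached 1.5-fold, but the difference of 0.71 ± 0.07 was called (adjusted p = 9.88e-10), as was each of the 4 pairs of clones. HERC5, the ligase for the ubiquitin-like ISG15, had responses of 0.40, 0.62, -0.06 and -0.11 and a difference of 0.60 ± 0.07 (adjusted p = 1.22e-07).

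The interferon-stimulated genes as a list had small differences that nearly all lay on one side. Of the 28 measured, 2 were called higher and 11 were higher by the adjusted p alone, among them OASL (0.52), RSAD2 (0.46), ISG15 (0.46) and IFIT3 (0.44). Over all genes these shares were 0.106% and 0.708%. All 28 differences were above 0, where 11190 of the 19775 genes were, and the median was 0.27. Both IRS-1 responses lay above both IRS-2 responses in 25 of the 28 (89.3%), against 17.8% of all genes. The responses were above 0 in both IRS-1 clones and below 0 in both IRS-2 clones in 7 of the 28, a pattern that 888 of all genes had (4.49%). The median responses of the list were 0.26 in both IRS-1 clones, -0.11 in IRS-2 #1 and 0.06 in IRS-2 #6. The clones already differed in these genes without IGF-I: 24 of the 28 had a higher SFM level in the IRS-1 clones by the adjusted p, with IFI44L at 4.36 and IFI44 at 3.85 log2 units above the IRS-2 clones, while CXCL10 (-0.26) did not share that direction. Whether those starting levels bear on the responses was not tested.

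CCL20, a chemokine that attracts CCR6-bearing lymphocytes, differed chiefly through lower values after IGF-I with IRS-2. It read 8.43, 8.45 and 8.25 in SFM and 7.15, 7.40 and 7.56 with IGF-I in IRS-2 #6, and 8.09, 7.68 and 7.94 against 7.49, 7.38 and 7.35 in IRS-2 #1. The fall was called in IRS-2 #6 (-1.01) and was -0.50 in IRS-2 #1, with no overlap between treatments in either. IRS-1 #10 read 6.28, 6.13 and 6.36 against 6.62, 6.61 and 6.64, and IRS-1 #20 5.96, 6.19 and 6.02 against 6.30, 5.88 and 5.77. The level in the IRS-1 clones minus that in the IRS-2 clones was -1.98 in SFM and -1.08 with IGF-I. The isoform difference was 0.90 ± 0.13 (adjusted p = 1.29e-05) and was no longer called without IRS-2 #6. RAB39B, a small GTPase of vesicle traffic, had no called response in any clone (0.23, 0.56, -0.22 and -0.52), and its difference of 0.76 ± 0.12 (adjusted p = 4.92e-05) came about equally from both isoforms. The dimmer RAB39B probe set 230075_at was not called. The 3 probe sets without a symbol (1555623_at, 234432_at and 234623_x_at) also had called falls in IRS-2 #6 (-1.22, -1.33 and -1.19), and their SFM level with IRS-1 minus that with IRS-2 was -4.71, -3.40 and -4.30. In the IRS-1 clones their group means were 4.68 to 4.79, 3.51 to 3.61 and 3.82 to 4.10. The lowest value of any array was 3.13, and whether a floor limited a fall with IRS-1 was not tested.

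The remaining called genes had no list of their own. DHRS2, a short-chain dehydrogenase, rose in both IRS-1 clones (0.68 and 0.90) with no called response in the IRS-2 clones (0.21 and -0.01), a difference of 0.69 ± 0.07 (adjusted p = 6.17e-09). Its SFM level was 12.20 to 12.33 in IRS-2 #6 and 8.89 to 9.71 in the other clones. The dimmer DHRS2 probe set 206463_s_at had an isoform difference of 0.46 and was not called. LAMP3, a lysosomal membrane protein (0.62), CLGN, an endoplasmic reticulum chaperone (0.62), and APOL6, an interferon-inducible apolipoprotein L (0.59, by its dimmest probe set), were called too. They fall outside the naming rule and were picked with their values known. CLGN responded in IRS-1 #20 alone (1.13), where the other 3 clones lay between -0.10 and 0.00.

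The IRS-1 clones mostly started lower. In SFM, 25 of the 32 probe sets had a lower level in the IRS-1 clones, 24 of them by the adjusted p. Of all genes, 6940 were lower and 4234 higher with IRS-1 in SFM by the adjusted p. With IGF-I, 23 of the 32 were higher in the IRS-1 clones, 22 of them by the adjusted p, while of all genes 4032 were higher and 6246 lower. For SHMT2 (214095_at) the SFM gap of -0.59 ended at 0.01, whereas for ASNS a gap of -0.44 turned to 0.89. The 7 that started higher with IRS-1, GDF15, LAMP3 and HERC5 among them, had a wider gap with IGF-I. Members were called for a positive difference, which is the step from the SFM gap to the IGF-I gap, so that a lower start narrows or turns and a higher start widens follows from the call. The SFM and IGF-I levels of the same arrays enter that difference, so the counts of lower starts and higher ends are a description and not separate evidence.

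**Figure D4:**
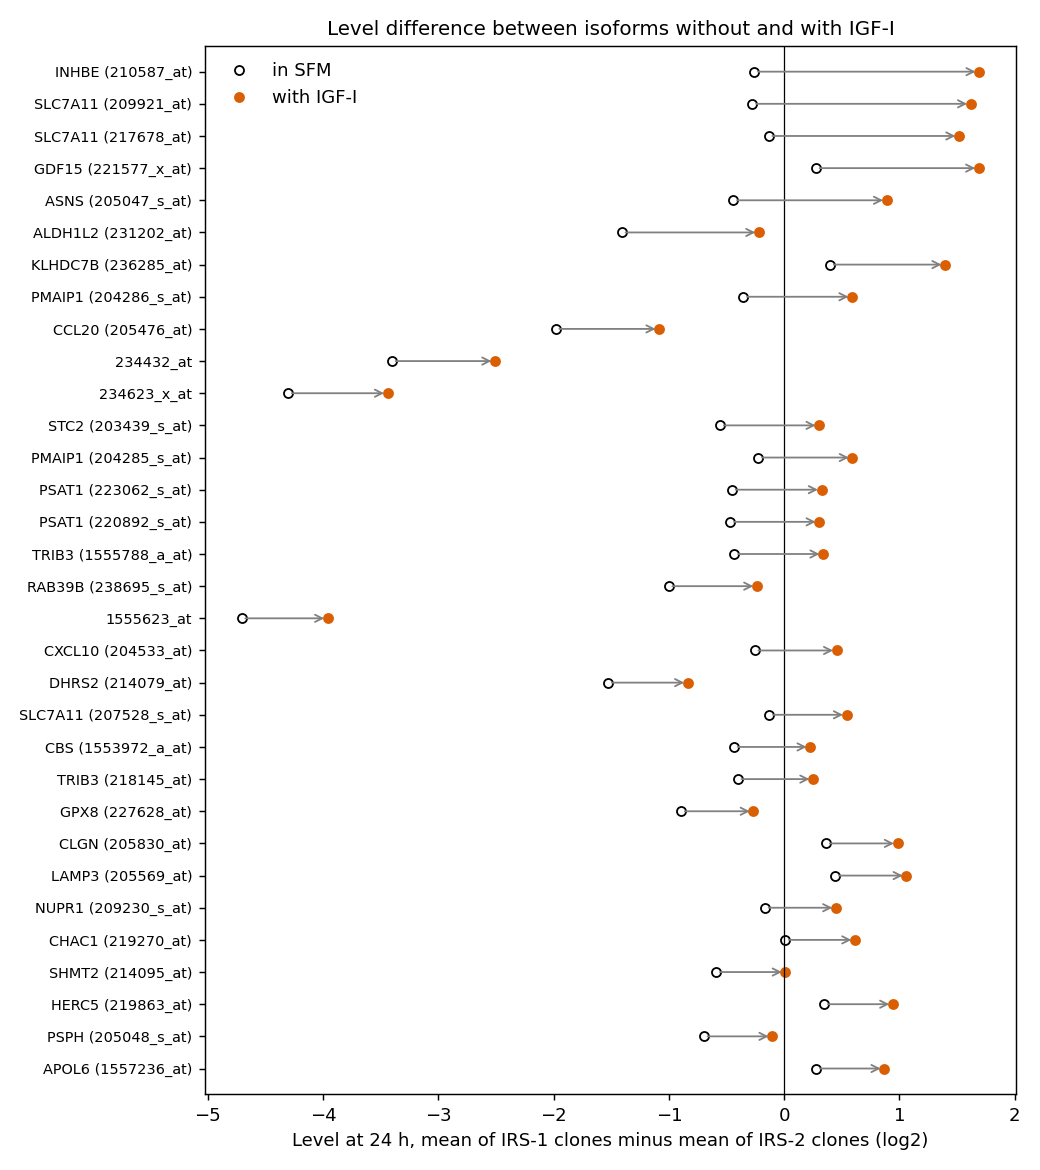
Mean level of the IRS-1 clones minus mean level of the IRS-2 clones at 24 h (log2) in SFM (open points) and with IGF-I (filled points) for the 32 called probe sets; the length of each arrow is the isoform difference of the response. In SFM 25 of the 32 lie below 0, and with IGF-I 23 lie above 0.

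The isoform differences of these genes were small at 4 h. At 4 h, which has its own SFM arrays, the isoform differences of the same 32 probe sets ran from -0.36 to 0.31, 12 of them above 0, and 0 were called. The difference at 24 h minus that at 4 h was called for 25 of the 32, and for 57 probe sets over all tested (0.104%). Since the 32 were called for their 24 h difference, which enters this contrast, that count is a description. Those that did not pass were CCL20, RAB39B, DHRS2, GPX8, PSPH, APOL6 and the unnamed 234432_at. At 4 h IGF-I already raised some of the genes with IRS-2: 5 of the 32 probe sets, from 3 genes, had a called rise in an IRS-2 clone, where 0.0879% of all probe sets rose in IRS-2 #1 and 0.2% in IRS-2 #6. The 4 h responses of SLC7A11 (209921_at) were 0.34, 0.74, 0.78 and 1.01, called in all clones but #10. Its 24 h responses were 1.53, 2.69, 0.40 and 0.04, called in the IRS-1 clones only, so the clone with the largest response at 4 h had the smallest at 24 h. GDF15 (0.63) and PMAIP1 (0.62 for 204285_s_at) also rose in IRS-2 #6 at 4 h.

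The isoform differences called at 4 h were other genes and ran the other way. They were 16 probe sets, all lower with IRS-1 (0.0293%), among them the growth factor TGFB2 (-1.67 for 209909_s_at), the transcription factor MAFF (-1.04 for 36711_at) and the guanylate-binding protein GBP1 (-0.79 for 202270_at). At 24 h these values were 0.27, 0.03 and 0.35, and no 4 h call was called at 24 h. The TGFB2 probe set 209909_s_at was dim (mean 4.23 over the 24 h arrays), and the brightest, 228121_at, had -0.95 at 4 h. By the brightest probe set of each gene, 4 genes were called lower at 4 h. TGFB2 and GBP1 were among them and MAFF was not. The 4 h clone responses were 0.35, 1.69, 2.38 and 2.99 for TGFB2 (209909_s_at) and 0.01, 0.59, 0.83 and 1.85 for MAFF. For GBP1 they were 0.64, 2.17, 2.06 and 2.33, so IRS-1 #20 lay among the IRS-2 clones and only #10 was lower.

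**Figure D5:**
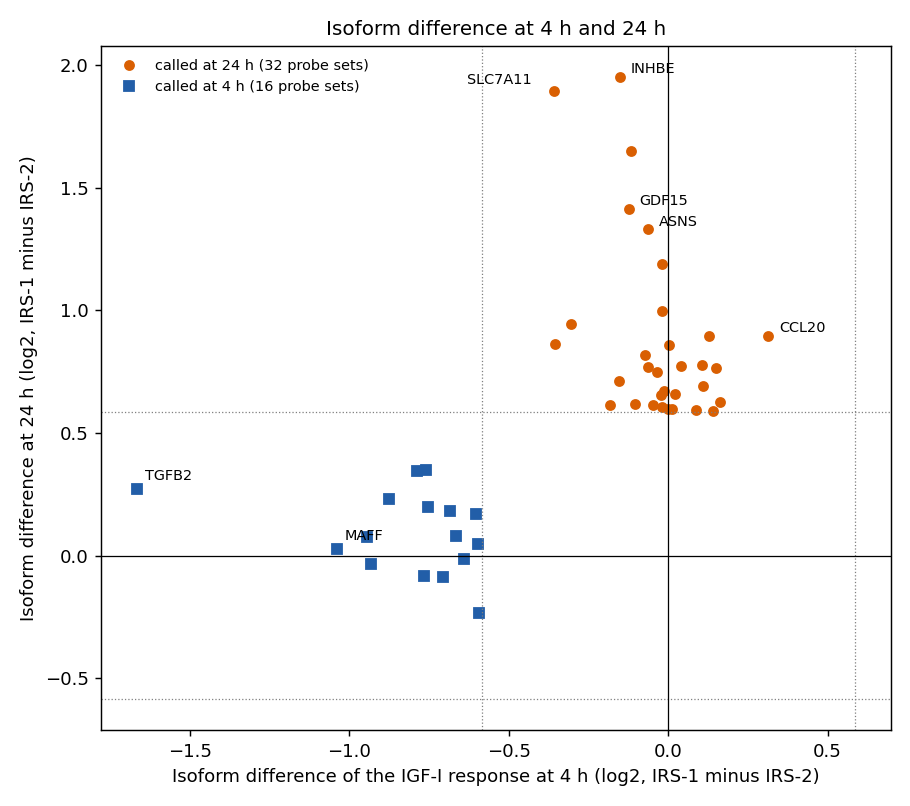
Isoform difference of the IGF-I response (log2, IRS-1 minus IRS-2) at 4 h against that at 24 h for the probe sets called at either time; dotted lines mark 1.5-fold. The 32 called at 24 h lie between -0.36 and 0.31 at 4 h, and the 16 called at 4 h all lie to the left of the left dotted line and between the horizontal ones.

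Genes chosen by the study for PCR, apart from SLC7A11, were not called at 24 h. The isoform difference was -0.08 for CCND1 (cyclin D1), 0.19 for the cell cycle factor MYBL2, 0.02 for the receptor TNFRSF12A, -0.09 for adrenomedullin (ADM), -0.01 for the CDK inhibitor CDKN2B, 0.35 for GBP1 and 0.08 for TGFB2 (228121_at), and TGFB1 stood at -0.02. Their adjusted p-values ran from 0.0711 for GBP1 upwards. The 36 mitosis genes had median responses above 0 in all clones (0.50, 0.39, 0.38 and 0.25), with 0 called in the isoform difference and a median of 0.12. By the adjusted p alone 3 of them were higher with IRS-1, 35 of the 36 differences were above 0, and both IRS-1 responses lay above both IRS-2 responses in 18 of the 36, against 17.8% of all genes. The 29 genes of DNA replication had a median difference of 0.13, with 0 called, 5 higher by the adjusted p alone, 27 above 0, and both IRS-1 responses above in 10.3%. Cholesterol and fatty acid synthesis (median -0.06), adhesion and cytoskeleton (-0.07), growth factor early response (-0.04) and the TGF-beta pathway (-0.02) had 0 calls among 18, 20, 23 and 15 genes. So did histone genes (median 0.05), ribosome biogenesis (0.04), hypoxia and glycolysis (0.02), FOXO targets (-0.01) and targets of the estrogen and progesterone receptors (-0.04). Both IRS-1 responses lay below both IRS-2 responses in 7 of the 18 cholesterol and fatty acid genes and 7 of the 20 adhesion genes. They did so in 5 of the 23 early response genes and 6 of the 15 TGF-beta genes, against 11.6% of all genes. Both lay above in 1, 3, 2 and 0 genes of these lists, against 17.8% of all genes. Among the receptors, adaptors and binding proteins of the IGF system, 0 of 14 were called, with IRS1 at 0.10, IRS2 at -0.10 and GRB10, an adaptor that restrains the receptor, at 0.25.

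Technical values were close across the 24 arrays. Arrays of a group correlated at 0.995 to 0.998, their medians lay between 7.40 and 7.51, and 0 columns were identical. Luminal markers such as KRT8, ESR1 and GATA3 were bright in all arrays (medians of 9 genes from 10.44 to 14.80). Of 14 markers of fibroblasts, leukocytes, endothelium and basal cells, the brightest stood at 9.97 and 0 were called, and the mean of these markers ranged from 7.15 to 7.39 over the arrays. The 3' minus 5' log2 signal of ACTB, a sign of RNA integrity, had an isoform difference of 0.002 and that of GAPDH 0.02. RNA was taken with either of 2 kits, and which kit served which sample is not given in the sources used here, so its part was not tested.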

How the data were processed

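Affymetrix HG-U133 Plus 2.0 arrays were used. The authors summarized probe sets with GC-RMA (no version is given in the submitters' notes), and the deposited values are log2 summaries normalized between arrays, not relative to the untreated state. No raw intensities were used, so signal over background is unknown. The precision comes from the number of arrays and the moderated variance of each probe set. The 62 control probe sets were left out. limma 3.58.1 (R 4.3.3) fitted 16 group means over 48 arrays with intensity-trended empirical Bayes variances (32 residual degrees of freedom), and contrasts gave each clone's response, the isoform difference, its change from 4 h and the 4 pairs of clones. Replicates were arrays, and the error leaves out variation from clone to clone. Platform symbols (41097 probe sets with a single symbol, 1801 with several, 11777 with none) were matched to RefSeq by Entrez identifier (41043). A gene is represented by its brightest probe set over the 24 arrays. Named genes were the 15 largest higher and 10 largest lower called differences, the 8 called genes with the widest gap between isoforms, up to 4 called members per list, and IRS1, IRS2, ATF4, DDIT3, ATF3, TRIB3, TGFB1 and the study's PCR genes. Other uncalled list members and the genes called at 4 h were named after their values were seen. Alternatives were the arrays of 24 h alone, clones as replicates, quantile or median scaling, a dim filter, variances without a trend, other thresholds, the methods' t-test, averaged probe sets per gene, a replicate block, and leaving out each letter or clone. The members, lists and rules were chosen with earlier results of these data known. Letters A to C were tested as pairs: within clones, IGF-I and SFM deviations of like letters correlated from -0.36 to 0.30 over 12 pairs, 2 of them over 0.1, so letters were not used as pairs. The fit was tested on simulated data. Tables used pandas 2.3.3 and numpy 2.4.6 under Python 3.11.15, and figures matplotlib 3.10.9.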

Additional observations from a re-analysis of the deposited data

Results flagged for a closer look

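The IRS-1 clones differed in their 24 h response for 12 of the 32 called probe sets, tested as IRS-1 #20 minus IRS-1 #10 in limma. The log2 differences were 2.72 for INHBE, 2.01 for GDF15, 1.48 for KLHDC7B, 1.18 for ALDH1L2 (231202_at), 1.16 and 0.80 for SLC7A11 (209921_at and 217678_at), 1.13 for CLGN, 0.88 for ASNS, 0.71 and 0.67 for TRIB3 (1555788_a_at and 218145_at) and 0.64 for both STC2 and SHMT2 (214095_at). Over all probe sets, 63 had a higher response in IRS-1 #20 and 10 a lower one, and what sets the clones apart was not tested. The isoform difference also differed between times: it was higher at 24 h than at 4 h for 57 probe sets and lower for 1 (242914_at), and 25 of the 32 probe sets called at 24 h were among the 57. The 24 h difference that chose those 32 is part of this contrast.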

How the results depend on the processing

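All 32 probe sets called higher kept their direction under each alternative run on probe sets, as did the 21 genes measured with probe sets averaged. Changes of threshold, variance or replicate unit leave the difference itself the same, so its direction could not change. Leaving out a clone could not reverse any of the 32 either, since both IRS-1 responses lay above both IRS-2 responses. Their count of 32 stayed from 30 to 36 with the 24 h arrays alone (33), quantile (36) or median (30) scaling, the dim filter, variances without a trend, unadjusted p-values, the methods' t-test unadjusted (33) and clones as replicates (34), and was 28 under Bonferroni. It moved to 222 without the fold threshold, 6 at 2-fold, 17 for the methods' t-test after Benjamini-Hochberg, and 82 or 13 without clone #10 or #20. Without #1 or #6 it was 42 or 34, and 10 of the 32 calls were lost without #6. Leaving out a letter gave 22 to 42, and without the A arrays 12 of the 32 calls were lost, among them RAB39B, TRIB3 (218145_at), HERC5, NUPR1, PSPH, CLGN and LAMP3. The replicate block gave 33 with all 32 retained, although the letters do not pair arrays. Clones as replicates borrowed nearly all their variance from other probe sets (prior degrees of freedom 532 against 2). With robust moderation of the clone fit, added after seeing the data, 24 were called, and 22 of the 32 kept their call. The calls lost included INHBE, GDF15, ASNS, KLHDC7B, CLGN, SLC7A11 (209921_at), ALDH1L2 (231202_at) and TRIB3 (218145_at). Other probe sets of SLC7A11 and TRIB3 kept theirs. With each probe set's own variance 0 were called (8 unadjusted). Of the 32, 7 were called unadjusted, and these belong to PMAIP1, PSAT1, CXCL10, DHRS2 and HERC5. Requiring each of the 4 pairs of clones left 8.

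The count of 0 called lower became 2 with the 24 h arrays alone, 7 with clones as replicates (5 robust), 38 without the fold, 7 unadjusted, 6 by the methods' t-test unadjusted, 5, 10, 1 and 3 without clone #10, #20, #1 and #6, and 0 to 15 without a letter. For the change from 4 h to 24 h, the 57 higher became 156 without the fold, 16 at 2-fold, 104, 96 and 33 without #10, #1 and #6, and 58 under the replicate block, and were 40 to 64 without a letter. The 1 lower became 2 with clones as replicates or quantile scaling, 0 without a trend, at 2-fold or under Bonferroni, 7 without the fold, 4 unadjusted, 2, 4 and 2 without #10, #20 and #1, and 0 to 3 without a letter. The cause of these shifts was not tested. With probe sets averaged per gene, 18 genes were called in place of 21, 17 of them shared. With 3 arrays per group and 2 clones per isoform, differences below 1.5-fold and differences carried by a single clone are the least certain.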
